A study of Homo sapiens with 5 samples.

Results

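The mRNAs of the proteasome were followed through RNA immunoprecipitation sequencing (RIPseq) of 2 RNA-associated proteins, CBFB and hnRNPK, in MCF10A cells. Members were chosen by name: protein-coding genes whose symbol begins with PSMA, PSMB, PSMC, PSMD, PSME, PSMF or PSMG followed by a number. The rule found 49 of 56632 gene identifiers and left out 50 genes of the same name pattern that are not protein-coding, most of them pseudogene copies. Of the 49, 47 encode subunits, activators, inhibitors or assembly factors. The other members, PSMC3IP (a partner protein used in meiotic recombination) and PSME3IP1 (a protein that binds the activator encoded by PSME3), matched the pattern only. A mean of at least 1 FPKM (fragments mapped to a gene, scaled to transcript length and library size) over the libraries was reached by 47 members, among 11764 such genes in all. PSMA8 (a testis form of an alpha subunit) and PSMB11 (a thymic beta subunit) were listed at 0 in every library. PSMB3, a constitutive beta subunit, was not matched to an identifier and was not analysed here.

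MCF10A is a human mammary epithelial line that does not form tumours, here at fewer than 20 passages, untreated, and grown with serum, insulin, EGF, hydrocortisone and cholera toxin in every group. There were 5 libraries: input RNA and a RIP with a FLAG antibody from MCF10A cells expressing FLAG-tagged CBFB (1 library each), and input RNA (1 library) and RIPs with an hnRNPK antibody (2 repeats) from MCF10A cells without the tag. The study asked which mRNAs CBFB binds and whether hnRNPK binds them too. Its methods describe lentiviral FLAG-CBFB lines made in cells deleted for CBFB, but whether the RIPseq cells were such a line, which end of CBFB carried the tag, or whether the line was 1 clone is not given in the sources used here. No library from a control antibody was used here, so RNA carried over without the antibody's target could not be subtracted. Nothing says that the hnRNPK repeats came from separate cultures, and their spread may be technical.

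The proteasome is the protease that degrades proteins tagged with ubiquitin. Its 20S core is a barrel of alpha rings, which gate the entrance, around beta rings, which hold the cutting sites; the 19S regulator is a ring of ATPases that unfold substrates plus non-ATPase subunits that bind and remove ubiquitin. Other activators can replace the 19S cap: PSME1 and PSME2 form PA28αβ, PSME3 forms the nuclear PA28γ, and PSME4 encodes PA200. PSMF1 encodes PI31, first described as an inhibitor of the core. The subunits are needed in fixed proportions and dedicated chaperones help to assemble them. hnRNPK binds RNA and favours stretches of cytosine, and CBFB is best known as the partner of the RUNX transcription factors.

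Because hnRNPK favours cytosine, the longest C run of the annotated 3′ untranslated region (UTR) is shown for the members on which the results turn, with the run in capitals inside 30 bases of the mRNA strand, 5′ to 3′. Of the subunits and helpers, the first 5 had the highest counts in the hnRNPK RIPs relative to input, and the last 2 the lowest. Sequences and positions are from GENCODE 29 on GRCh38, all inside a 3′ UTR exon. They use the longest complete coding transcript of each gene, with those tagged CCDS and basic in GENCODE taken first.
PSME3: tgttttcattctCCCCCtctctccctcctg
PSMF1: accagagtcagtCCCCCttggggagcaatc
PSMD11: gtgggcccttagCCCCCaaggggcctgcta
PSMD5: agagacttcctttCCCCaagaattatcatg
PSMB2: tacagacacatgCCCCCtttaaatttttta
PSMB4: agaactgaagttgCCCtacttttaactttg
PSMA1: gtgataagCCagtctatatatgtattatca
These lie at chr17:42841867-42841896 on the plus strand (PSME3), chr20:1168112-1168141 plus (PSMF1), chr17:32481466-32481495 plus (PSMD11), chr9:120817795-120817824 minus (PSMD5), chr1:35602348-35602377 minus (PSMB2), chr1:151401848-151401877 plus (PSMB4) and chr11:14505162-14505191 minus (PSMA1). PSME3, PSMF1, PSMD11 and PSMB2 each held a run of 5 C, PSMD5 one of 4, PSMB4 one of 3 and PSMA1 one of 2. Longer runs were held by PSMG3 (7 C) and by PSMA5 and PSMD8 (6 C each). Their hnRNPK enrichments, a measure defined below, were -1.85, -2.15 and -1.52, all under the average gene. The median longest run was 4 C over the 47 members and 5 C over the 10540 expressed genes. A run of at least 4 C (CCCC, searched on the mRNA strand, overlapping matches counted as 1 run) is common: 81.2% of 10540 expressed genes held one in the 3′ UTR, against 27 of the 47 members. A run is a description of the letters, not a binding site, and the annotated UTR need not be the one expressed.

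The libraries held between 69786576 and 106855647 estimated counts. Mitochondrial genes took 4.27% of the FLAG-CBFB input, 11.2% of the parental input, 62.2% of the FLAG-CBFB RIP, 84.5% of the first hnRNPK RIP and 86.6% of the second. FPKM is a share of a library, and the mean log2(FPKM + 1) of the 11764 genes moved by -1.34 with FLAG-CBFB and by -2.61 and -2.68 with hnRNPK. With FPKM rescaled to the same sum without mitochondrial genes, the mean moved by -0.27 with FLAG-CBFB and -0.41 with hnRNPK. Enrichment below is therefore the difference in log2(FPKM + 1) between a RIP and the input of the same cells, minus this mean, so that 0 is the average gene and not an equal FPKM. As the RIPs measure shares, more of an mRNA bound and less of the others recovered cannot be told apart. All 7 markers of breast basal epithelium were present in the inputs, with KRT5 at 1974 and 1640 FPKM, although KRT14 was low at 6.78 and 1.81 FPKM. Among 8 markers of blood, endothelial, fibroblast and hormone-responsive cells, COL1A1 reached 1.08 and 1.77 FPKM, ESR1 0.71 and 0.67, and the other 6 at most 0.07.

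Proteasome mRNAs were abundant in both inputs. As a group that includes PSME3 and PSMF1 they kept their share of the nuclear-encoded RNA in the FLAG-CBFB RIP. They lost part of it in the hnRNPK RIPs. The median member stood at 78.2 FPKM in the FLAG-CBFB input and 28.2 in its RIP. It stood at 102.0 FPKM in the parental input and at 4.60 and 4.24 after hnRNPK RIP, so both RIPs lay far below their input. Of the counts outside mitochondrial genes, the members took 0.507% in the FLAG-CBFB input and 0.521% in its RIP, against 0.716% in the parental input, 0.361% in hnRNPK RIP 1 and 0.447% in hnRNPK RIP 2. PSME3 alone made up a large part of what remained: 2.14% of the members' summed FPKM in the parental input, but 32.5% and 39.0% in the hnRNPK RIPs. Without PSME3 the members' share of counts outside mitochondrial genes was 0.693% in the parental input, 0.216% in hnRNPK RIP 1 and 0.241% in hnRNPK RIP 2. It was 0.488% in the FLAG-CBFB input and 0.465% in its RIP. PSME3 and PSMF1 made up 2.62% and 2.34% of the members' summed FPKM in the FLAG-CBFB input, and 6.65% and 9.52% in its RIP.

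**Figure D1:**
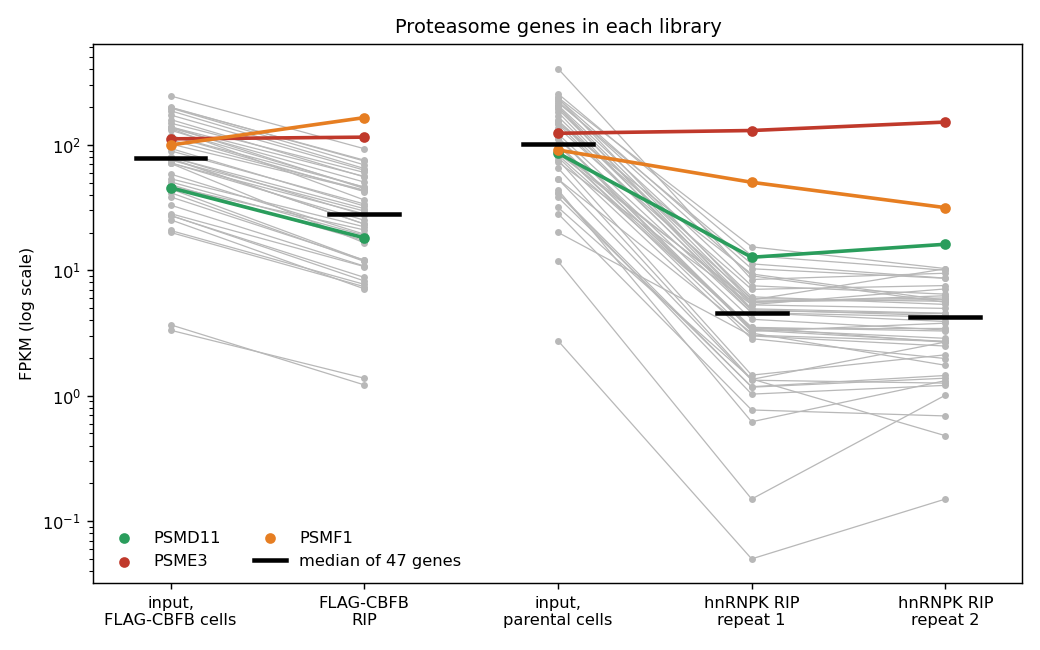
FPKM (log scale) of the 47 analysed proteasome genes in each of the 5 libraries; lines join an input to its RIPs, black bars are the medians (78.2, 28.2, 102.0, 4.60 and 4.24). Grey lines run down from input to hnRNPK RIP, while PSME3 stayed between 124 and 152 FPKM and PSMF1 (50.4 and 31.6) lay between PSME3 and the rest.

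In the hnRNPK RIPs, most proteasome mRNAs were depleted relative to other expressed genes and a few stood apart. The members' median enrichment was -1.85, beside -0.11 for all 11764 genes. Enrichment lay below -1 (2-fold under the average gene) for 40 of 47 members in the mean of the repeats and for 38 in both repeats, where 25.3% and 22.4% of all genes did so. Below -2 (4-fold) were 15 members, beside 6.24% of all genes, but only 2 with a pseudocount of 0.1, with TMM-scaled counts or with genes of at least 5 FPKM, and 4 against the other input. Because of the pseudocount of 1, genes with a low input cannot reach -1 or -2, which lowers these shares of all genes. The members were mostly abundant in the parental input, at a median of 102.0 FPKM. Above 1 were only PSME3 and PSMF1, beside 20.9% of all genes, and above 2 only PSME3, beside 8.2%. The pseudocount also draws genes with a low input toward 2.64, the value of PSMA8 without reads. This can raise the shares of all genes above 1 and 2 without binding. The repeats gave 45 of 47 members the same sign, and the share of all genes with the same sign was not counted. The difference between the repeats had an SD of 0.34 across members, beside 0.35 across all genes. Across the 47 members the repeats followed each other with r = 0.95, or 0.90 without PSME3 and PSMF1; the repeats share 1 input, which raises this value.

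Estimated counts of the 2 hnRNPK RIPs were also tested against the parental input with edgeR's quasi-likelihood test, in which the single input is assumed to vary as the RIPs do. At a Benjamini-Hochberg adjusted p under 0.05 over 16639 genes, 31 of 47 members were lower in the RIPs, beside 15.8% of all genes, and 4 were higher, beside 21.9%. The median log2 fold change was -1.15 for the members and -0.12 for all genes. The 4 higher members were PSME3, PSMF1, PSMD11 and PSMD5. Against the input of the FLAG-CBFB cells in place of the parental input, 12 members were lower (18.1% of all genes) and 5 higher (22.7%); the FLAG-CBFB input held less proteasome mRNA, with a median difference of -0.44 in log2(FPKM + 1) between the inputs (0.00 for all genes) and 42 of 47 members below 0. With DESeq2 size factors in edgeR the counts were 31 lower (15.1% of all genes) and 4 higher (22.1%), and without the filter 34 (14%) and 3 (13.5%). DESeq2 called 24 lower (9.34%) and 4 higher (20.5%).

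**Figure D2:**
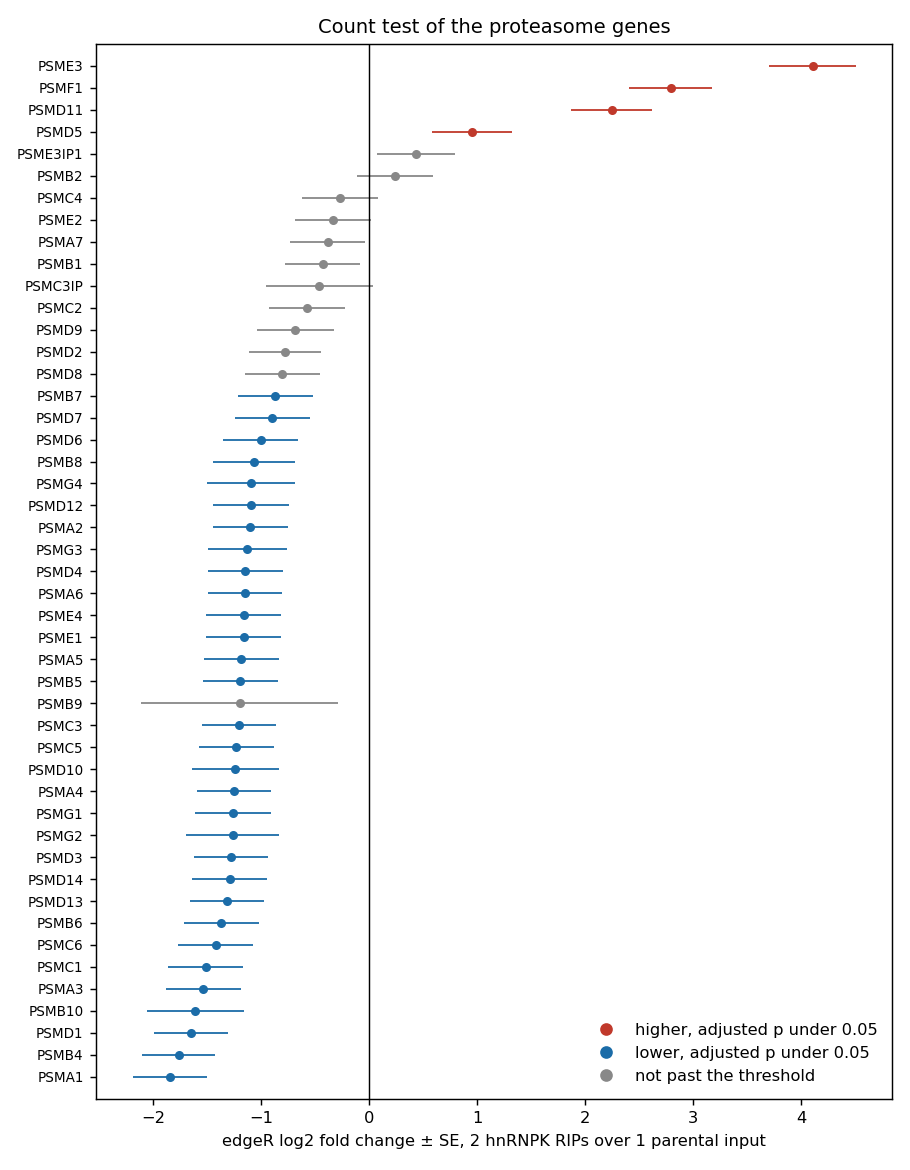
Log2 fold change of estimated counts, 2 hnRNPK RIPs over 1 parental input, with its standard error, for the 47 proteasome genes (edgeR quasi-likelihood test, TMM scaling). PSME3, PSMF1, PSMD11 and PSMD5 lie to the right (red, higher at an adjusted p under 0.05), 31 genes to the left (blue) and 12 did not pass (grey).

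The 7 analysed genes of the alpha ring, which forms the gate of the core, had the lowest median enrichment of the role groups in the hnRNPK RIPs, -2.21, with every gene below -1. In the count test the group medians lay closer together, with log2 fold changes of -1.19 for the alpha ring, -1.20 for the inducible beta subunits and -1.22 for the 19S ATPases. PSMA1 stood at 201 FPKM in the parental input and at 4.93 and 4.55 after hnRNPK RIP. Both RIPs lay far below the input, and its enrichment was -2.49 ± 0.02 (SD, n = 2). PSMA1 was the lowest member in the count test, with a log2 fold change of -1.85 (SE 0.34, edgeR quasi-likelihood adjusted p = 7.4e-07). PSMA3 followed at -2.38 ± 0.01, and PSMA7 was the least depleted at -1.50 ± 0.33. The count test called 6 of the 7 lower; PSMA7 did not pass. In the FLAG-CBFB RIP the same 7 genes lay close together, between -0.18 for PSMA1 and 0.04 for PSMA2, with a median of -0.08.

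Among the 6 analysed constitutive beta subunits, PSMB4, which has no cutting site of its own, had the lowest hnRNPK enrichment of all members. PSMB4 was the most abundant member in both inputs, at 246 FPKM in FLAG-CBFB cells and 407 in parental cells. Its level was 93.3 FPKM after FLAG-CBFB RIP and 8.45 and 9.48 after hnRNPK RIP. The hnRNPK enrichment of PSMB4 was -2.71 ± 0.16 (SD, n = 2) and its log2 fold change in counts -1.77 (SE 0.34, edgeR adjusted p = 1.6e-06), while its FLAG-CBFB enrichment was -0.05. The catalytic subunits PSMB5, PSMB6 and PSMB7 had hnRNPK enrichments of -2.06, -2.27 and -1.85 and were called lower.

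PSMB2, another beta subunit without a cutting site, was the exception in this ring. Its FPKM was 53.7 and 22.2 in the FLAG-CBFB input and RIP, and 73.2, 5.33 and 7.11 in the parental input and hnRNPK RIPs. Its hnRNPK enrichment was -0.73 ± 0.30 and it did not pass the count test (log2 fold change 0.24, SE 0.35, edgeR adjusted p = 0.63). The count test called 4 of the 6 lower.

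Of the 3 interferon-inducible beta subunits, PSMB9 was barely expressed. PSMB8 and PSMB10, at 38.3 and 44.0 FPKM in the parental input, had hnRNPK enrichments of -1.44 and -1.89 and were called lower. PSMB9 had 2.75 FPKM in the parental input and 0.05 and 0.15 after hnRNPK RIP, from 119, 2 and 8 counts. Its hnRNPK enrichment of 0.87 is set by the pseudocount of 1, since both RIPs lay below the input, and turned to -0.44 with a pseudocount of 0.1. In counts its log2 fold change was -1.20 (SE 0.91) and did not pass the test (edgeR adjusted p = 0.31).

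All 6 ATPases of the 19S ring were below -1 in the hnRNPK mean, from -2.18 for PSMC1 to -1.08 for PSMC4, with a median of -1.81. The count test called 4 of the 6 lower; PSMC2 and PSMC4 did not pass. PSMC4 was at 46.7 and 21.0 FPKM in the FLAG-CBFB input and RIP, and at 90.2, 5.53 and 6.27 in the parental input and hnRNPK RIPs. It had the highest FLAG-CBFB enrichment of the ATPases at 0.22, and PSMC6 the lowest at -0.34.

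Of the 11 non-ATPase genes of the 19S regulator, 10 lay below -1 in the hnRNPK RIPs and PSMD11 did not. The scaffold subunit PSMD1 was the lowest at -2.16 ± 0.29, and the ubiquitin receptor PSMD4 (-2.12 ± 0.57) and the deubiquitinase PSMD14 (-1.97 ± 0.16) were close to it. The count test called 8 of the 11 lower and 1 higher. PSMD2, a scaffold subunit that also docks ubiquitin carriers, and PSMD8 did not pass. PSMD3, a subunit of the lid, had the lowest FLAG-CBFB enrichment of all members, -0.70, with 71.3 FPKM in the input and 16.6 in the RIP.

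PSMD11, a lid subunit that ties the lid to the ATPase base and the core, was the one 19S gene called higher. PSMD11 (17:32444261-32483318, plus strand) was at 45.5 FPKM in the FLAG-CBFB input and 18.2 in its RIP, and at 86.1, 12.7 and 16.1 in the parental input and hnRNPK RIPs. Its FPKM was thus lower in every RIP than in the input, but by less than that of the other lid genes in the hnRNPK RIPs. Its hnRNPK enrichment was 0.14 ± 0.28 (SD, n = 2), which was 1.99 above the members' median, and its FLAG-CBFB enrichment was 0.06. Relative to other genes the counts of PSMD11 were higher in the RIPs, with 9157 in the parental input, 3818 in RIP 1 and 4695 in RIP 2 (log2 fold change 2.24, SE 0.38, edgeR adjusted p = 3.2e-08). The average transcript length that the quantification assigned to PSMD11 rose from 1685 nt in the parental input to 3085 and 3384 nt after hnRNPK RIP, a ratio of 1.83 and 2.01. FPKM divides by this length and the count does not. The part of the length in the difference was not tested. PSMD11 had the largest such ratio of the 47 members in both hnRNPK RIPs.

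The assembly chaperones resembled the subunits they assemble, with 1 exception. Of 7 genes, 6 lay below -1 in the hnRNPK RIPs, PSMG1 (a core chaperone) lowest at -2.03. PSMD5, a chaperone of the ATPase ring (9:120815496-120842984, minus strand), was the exception. It was at 25.3 and 7.12 FPKM in the FLAG-CBFB input and RIP, and at 20.1, 3 and 2.49 in the parental input and hnRNPK RIPs. Its hnRNPK enrichment was 0.15 ± 0.09, and its counts were higher relative to other genes (log2 fold change 0.95, SE 0.37, edgeR adjusted p = 0.031). This call was lost without the filter on low counts (adjusted p = 0.14, edgeR) and against the FLAG-CBFB input (adjusted p = 0.17, edgeR). The count test called 5 of the 7 lower; PSMD9, a chaperone of the base, did not pass. PSMG2 is uncertain, because an older identifier (ENSG00000267411) whose transcripts now belong to PSMG2 took more reads than PSMG2 itself, 45.8 FPKM against 31.8 in the parental input.

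**Figure D3:**
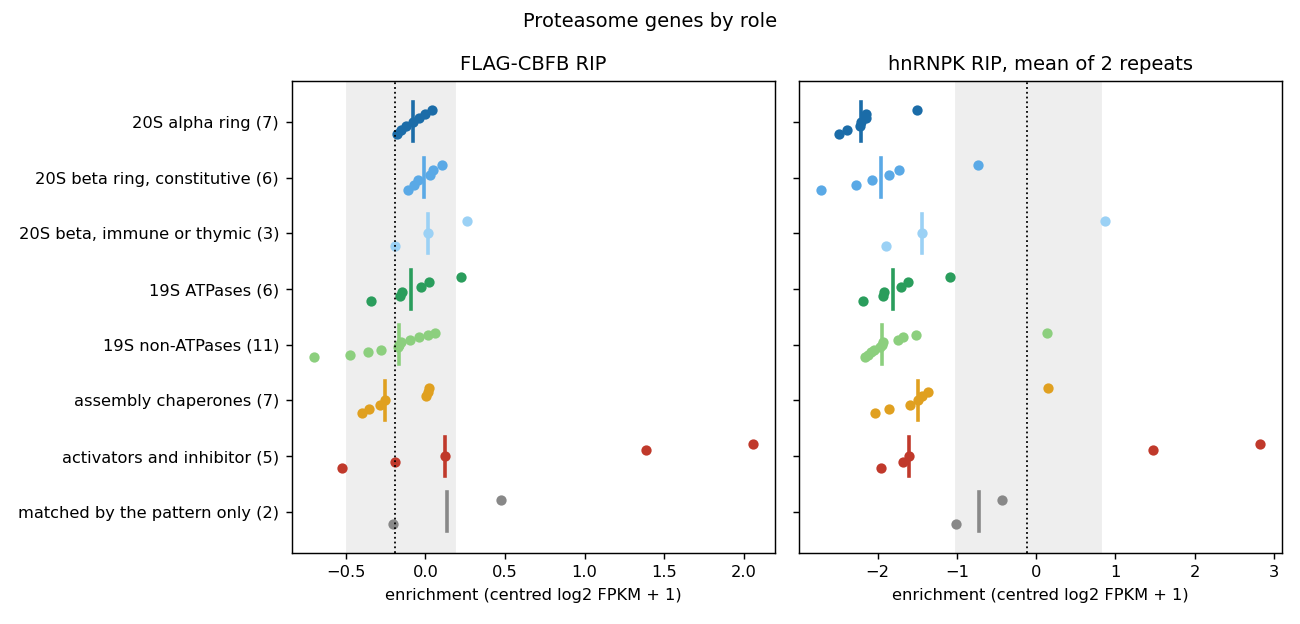
Enrichment of each analysed proteasome gene (points) by role, with the number of genes in brackets and the group's median as a coloured bar, in the FLAG-CBFB RIP (left) and the mean of 2 hnRNPK RIPs (right). The dotted line and grey band are the median and the middle 50% of 11764 genes. In the right panel most points lie left of the band. PSME3 (2.83), PSMF1 (1.47) and PSMB9 (0.87, a value set by the pseudocount) lie right of it.

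PSME3 was the member most enriched by hnRNPK. PSME3 (ENSG00000131467, 17:42824385-42843758, plus strand) was at 112 FPKM in the FLAG-CBFB input and 115 in its RIP, and at 124 FPKM in the parental input, 130 in hnRNPK RIP 1 and 152 in hnRNPK RIP 2. It was the only member whose FPKM was not lower in the hnRNPK RIPs than in the input; 4.27% of all genes were higher in both. Its counts were 14144 in the parental input, 23216 in RIP 1 and 24991 in RIP 2. Its hnRNPK enrichment was 2.83 ± 0.21 (SD, n = 2), above 95.7% of all genes and 4.68 above the members' median. In the count test its log2 fold change was 4.10 (SE 0.40, edgeR adjusted p = 1.2e-22).

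PSMF1 was next in the hnRNPK RIPs and first in the FLAG-CBFB RIP. PSMF1 (ENSG00000125818, 20:1113263-1189415, plus strand) was at 99.8 FPKM in the FLAG-CBFB input and 165 in its RIP, and at 91.1 FPKM in the parental input, 50.4 in hnRNPK RIP 1 and 31.6 in hnRNPK RIP 2. Its FPKM was thus higher than input with FLAG-CBFB and lower than input with hnRNPK. Because other genes lost more, its hnRNPK enrichment was 1.47 ± 0.41, above 87.2% of all genes. Its counts were 8213 in the parental input, 6610 in RIP 1 and 4901 in RIP 2 (log2 fold change 2.79, SE 0.39, edgeR adjusted p = 8.8e-12). PSME3, PSMF1 and PSMD11 were called higher in the main count test and in all 4 of its alternatives.

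The remaining activators followed the subunits. PSME1 and PSME2, the subunits of PA28αβ, had hnRNPK enrichments of -1.95 and -1.60, and PSME4 had -1.68. PSME1 and PSME4 were called lower; PSME2 did not pass. PSME1 also had the lowest FLAG-CBFB enrichment of this group, -0.53, whereas PSME2 had 0.13.

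In the FLAG-CBFB RIP the proteasome mRNAs stayed near the average gene, apart from PSMF1 and PSME3. There is 1 library per arm, so this comparison has no test. The members' median enrichment was -0.08, beside -0.19 for all genes, and the middle 50% of the members lay between -0.19 and 0.02. Above 1 were 2 members, PSMF1 at 2.06 and PSME3 at 1.38, beside 9.27% of all genes, and above 2 was PSMF1, beside 4.37%. These were also the only members with a higher FPKM in the RIP than in the input, as were 7% of all genes. Counting error alone gave 95% half-widths of 0.03 for the log2 count ratio of either gene. PSMC3IP came next at 0.48, from 300 and 95 counts. No member lay below -1 or -2, beside 3.81% and 0.0935% of all genes. The pseudocount draws genes with a low input toward 1.34 here, the value of PSMA8 without reads. This can raise the 9.27% of all genes above 1 and lower the shares below -1 and -2.

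PSMF1 and PSME3 thus stood out in both RIPs, in the opposite order. Above the members' median, PSMF1 was 2.14 higher with FLAG-CBFB and 3.33 ± 0.40 (SD, n = 2) with hnRNPK, while PSME3 was 1.46 and 4.68 ± 0.22 higher. Whether the genes differ between the RIPs was not tested. Across the 47 members, FLAG-CBFB and hnRNPK enrichment had r = 0.71, which was 0.29 without PSME3 and PSMF1. The points share the annotation and the read assignment, and each pair of libraries its cells. As reference points, RUNX1 had enrichments of 2.13 and 3.09, GAPDH of -0.18 and -2.69, CBFB itself of 0.67 and -1.03, and HNRNPK itself of -0.59 and -2.59. The hnRNPK enrichment of GAPDH thus lay below that of every alpha ring gene.

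**Figure D4:**
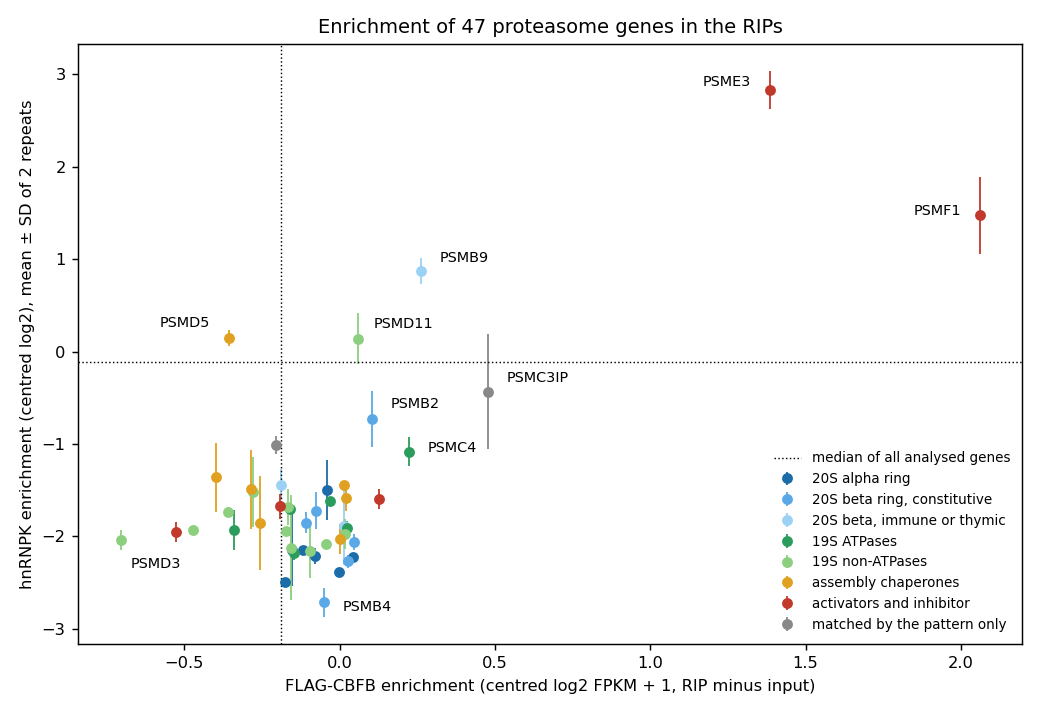
FLAG-CBFB enrichment (x axis, 1 library per arm) against hnRNPK enrichment (y axis, mean ± SD of 2 repeats) of 47 proteasome genes, coloured by role; dotted lines are the medians of all 11764 genes (-0.19 and -0.11). Most genes form a cloud near 0 on the x axis and below -1 on the y axis, with PSME3 (1.38, 2.83) and PSMF1 (2.06, 1.47) apart from it.

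Members that were more abundant in the parental input had lower hnRNPK enrichment (r = -0.45 over 47 members, -0.73 without PSME3 and PSMF1, on log2 scales). The input enters both measures. The pseudocount holds the difference of low genes near 0 before centring, which becomes 2.64 after it (PSMA8, without reads). Part of this relation is thus built in. Average transcript length had a weaker relation (r = 0.21 on log2 length, 0.17 without PSME3 and PSMF1). When enrichment was centred on protein-coding genes in the length range of the members, the members' median in the hnRNPK RIPs was -1.64.

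Genes of the wider ubiquitin-proteasome pathway lay on both sides of the average gene. Among 30 genes of the pathway outside the rule, the median enrichment was -0.30 with FLAG-CBFB and -1.11 with hnRNPK. The edgeR count test called 14 of the 30 lower in the hnRNPK RIPs and 5 higher, beside 15.8% and 21.9% of all genes. UBB, which encodes ubiquitin, was among the lowest at -2.67. The highest with hnRNPK were UBQLN2 at 2.36, which encodes a shuttle that carries tagged proteins to the proteasome, and AKIRIN2 at 2.18, which helps to import proteasomes into the nucleus.

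With FLAG-CBFB, AKIRIN2 was the highest of the 30 at 2.30, and UBA1, the main ubiquitin-activating enzyme, was at 1.63. The lowest were NFE2L1, the transcription factor that raises proteasome genes when proteasomes fail, at -1.55, its processing protease DDI2 at -0.98, and the shuttle RAD23B at -0.85. The small 19S subunits with other names, ADRM1 and SEM1, and the core chaperone POMP resembled the members, with hnRNPK enrichments of -1.76, -2.14 and -1.94, and were called lower.

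The members had shorter 3′ UTRs with fewer C runs than other expressed genes. The annotated 3′ UTR had a median of 356 nt among 47 members and 1222 nt among 10540 genes, and the median number of runs of at least 4 C in it was 1 and 3. At least 4 runs were present in 14 members, beside 48.7% of all genes. PSMF1 had 14 runs in 3298 nt, PSMB2 12 in 3723 nt, PSMD11 10 in 2566 nt, PSME3 9 in 2179 nt and PSMD5 6 in 1853 nt, against none in the 115 nt of PSMB4 or the 316 nt of PSMA1, whose longest runs are printed above. For PSMF1, PSMB2, PSMD11 and PSME3 this UTR exceeded the whole average transcript length assigned in the parental input: 1453, 2701, 1685 and 1797 nt. The UTRs of PSMD5, PSMB4 and PSMA1 did not exceed it. Some of the counted runs may thus lie outside the mRNA measured.

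Members with many annotated C runs spread widely in hnRNPK enrichment, and those with none did not. All 20 members without a run lay below -1, with a median of -1.94, beside 43.4% of all genes without a run. Of 17 members with 1 to 5 runs, 15 lay below -1 (median -1.68), beside 31.7% of all such genes. Of 10 members with 6 or more, 5 lay below -1 (median -0.87), beside 12.6%. PSME3, PSMF1, PSMD11, PSMB2 and PSMD5 were the 5 above -1. PSMG4, with 14 runs, and PSMA4, PSMC1 and PSME3IP1, with 7 each, lay below it at -1.59, -2.21, -2.18 and -1.01. The annotated 3′ UTRs of these genes were 4226, 3475, 3022 and 1824 nt. They exceeded the average length assigned in the parental input (852, 1202, 1646 and 1239 nt). Their counted runs may thus lie outside the mRNA measured. PSMD3, with 6 runs, also lay below -1, at -2.04. Its 3′ UTR (379 nt) did not exceed its assigned length of 2157 nt, which was close to the 2158 nt annotated. Genes with a low input could not reach -1 here either, which lowers the shares of all genes.

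Over the 47 members the number of runs and hnRNPK enrichment had r = 0.55, or 0.37 without PSME3 and PSMF1, and over all 10540 genes r = 0.33. Runs per kilobase of 3′ UTR gave r = 0.31 over the members, 0.42 without PSME3 and PSMF1, and 0.20 over all genes. In every group by C runs the members' median lay below that of all genes, which was -0.78, -0.43 and 0.38. With FLAG-CBFB the number of runs gave r = 0.43 over the members and 0.13 over all genes, and runs per kilobase gave 0.01 and 0.28. The members' FLAG-CBFB medians were -0.06, -0.12 and -0.03 in the 3 groups, with a range of -0.36 to 0.13 without a run and of -0.70 to 2.06 with 6 or more. The annotated transcript need not be the one expressed. The average length assigned to PSMA4 in the parental input was 1202 nt, against 4411 nt annotated, and to PSME3 1797 nt against 3144 nt.

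**Figure D5:**
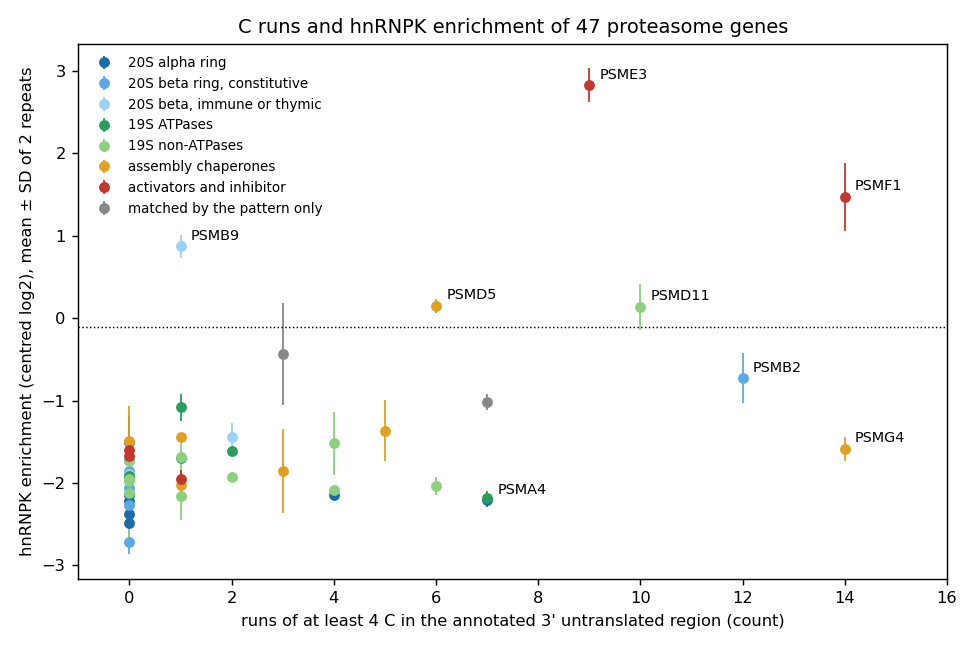
Number of runs of at least 4 C in the annotated 3′ UTR (x axis) against hnRNPK enrichment (y axis, mean ± SD of 2 repeats) of the 47 proteasome genes, coloured by role; the dotted line is the median of all genes (-0.11). Genes with no run all lie below -1, while genes with 6 or more run from -2.21 (PSMA4) to 2.83 (PSME3).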

How the data were processed

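The members, role lists and pathway list were chosen with earlier results of these data known. Total RNA of 2 inputs and 3 RIPs was sequenced from poly(A)-selected TruSeq libraries. The submitters' processing notes name Trimmomatic, STAR, RSEM and hg19; versions are not given in the sources used here. The authors deposited per-gene RSEM tables with the expected counts, which RSEM estimated by sharing reads among transcripts. The FPKM values that the authors deposited are these estimated counts scaled to transcript length and library size. The TPM values that the authors deposited gave no result here. RSEM shares reads between near-identical copies, so members with pseudogene copies are uncertain.

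Identifiers were named by GENCODE 29 on GRCh38 (50276 by identifier, 1221 by transcript, 5135 not matched); no coordinates come from the deposited tables. Enrichment used log2(FPKM + 1), centred on the mean over genes, after the mean-adjusted values the study plotted. The filter of a mean of at least 1 FPKM was chosen here. A log2 fold change on this scale understates the change of low genes. Estimated counts were rounded and tested with edgeR 4.0.16 (quasi-likelihood, TMM, filterByExpr) and, as an alternative, DESeq2 1.42.0 in R 4.3.3, with Benjamini-Hochberg adjustment. Totals ranged from 69786576 to 106855647 counts per library; 3 counts were at most 4.3e-06% of a library. C runs were counted in the longest complete coding transcript, with those tagged CCDS and basic taken first. All 49 members may be named; within a role, the text names the highest and lowest in each RIP, those past 2-fold and those of opposite sign. Of the pathway genes, the 3 highest and 3 lowest in each RIP were to be named; some of these are not reported here. Tables were made with Python 3.11.15, pandas 2.3.3 and numpy 2.4.6.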

Additional observations from a re-analysis of the deposited data

Results flagged for a closer look

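In 13 members the FLAG-CBFB enrichment and both hnRNPK repeats lay on opposite sides of the average gene. This difference was not tested, since FLAG-CBFB has 1 library per arm. Of all 11764 genes, 4129 lay above 0 with FLAG-CBFB and 6256 below 0 in the hnRNPK mean. The share of all genes with opposite signs was not counted, so the 13 only describe the members. In 5 of the 13 the FLAG-CBFB value was larger than its 95% counting error, for PSMB5 barely (0.0461 against 0.0457). This error is that of the log2 count ratio and leaves out the assigned transcript length. Of these 5, PSMC4 had 0.22 with FLAG-CBFB and -1.20 and -0.97 with hnRNPK, PSMB2 0.10 and -0.94 and -0.51, PSMB5 0.046 and -2.0 and -2.12, and PSME2 0.13 and -1.68 and -1.52. PSMD5 went the other way, with -0.36 against 0.21 and 0.08. The other 8 had FLAG-CBFB values within counting error of 0: PSMA2 0.042, PSMB6 0.028, PSMC5 0.025, PSMG4 0.020, PSMD14 0.018, PSMD10 0.016, PSMB10 0.015 and PSMG1 0.0014. Their hnRNPK values lay between -2.32 and -1.44.

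All 13 opposite signs held, for the mean of the hnRNPK repeats, with median centring, centring on genes of like length, a pseudocount of 0.1, genes of at least 5 FPKM and TMM-scaled counts. With FPKM rescaled without mitochondrial genes 4 of the 13 held, all 4 among the 5 above. With each RIP set against the input of the other cells 1 held, which was not among the 5. None held without centring, with FPKM scaled to the same sum or without the filter.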

How the results depend on the processing

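The direction of the members' hnRNPK median held under every alternative in this paragraph, while levels and 4-fold counts moved with the scaling; the FLAG-CBFB median lay near 0 and changed sign. In the order of median FLAG-CBFB and median hnRNPK enrichment (-0.08 and -1.85 as reported), the values were 0.10 and -1.48 with a pseudocount of 0.1, -1.42 and -4.50 without centring, 0.11 and -1.74 with median centring, -2.33 and -5.18 with FPKM scaled to the same sum, -0.18 and -1.76 with that scaling without mitochondrial genes, -1.10 and -3.77 without the filter, -0.012 and -1.40 with genes of at least 5 FPKM, -0.55 and -1.40 with the input of the other cells, and 0.22 and -1.46 with TMM-scaled counts. With centring on genes of like length the hnRNPK median was -1.64. These settings also moved all genes: their medians were -1.53 and -2.75 without centring, -2.37 and -3.35 with equal sums, 0.32 and 0.61 without the filter, and -0.10 and -0.60 with TMM-scaled counts. Leaving out 1 hnRNPK repeat gave medians of -1.79 to -1.77.

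Members more than 4-fold below the average gene with hnRNPK numbered 15 as reported, 2 with a pseudocount of 0.1, with genes of at least 5 FPKM or with TMM-scaled counts, 4 with the other input, 5 with centring on genes of like length, 7 with scaling without mitochondrial genes, 42 without the filter, 44 without centring and 46 with equal sums. Members more than 4-fold above it numbered 2 with a pseudocount of 0.1 or TMM-scaled counts, and 0 without centring, with equal sums or without the filter; more than 2-fold above it were 4 with the other input and 0 under those last 3 settings. With FLAG-CBFB, members more than 2-fold above numbered 0 without centring or with equal sums and 1 without the filter, and none lay more than 4-fold above under these 3 or with scaling without mitochondrial genes (0). More than 2-fold below with FLAG-CBFB lay 44 without centring (1 more than 4-fold), 45 with equal sums (43 more than 4-fold), 35 without the filter and 3 with the other input. Shares of all genes past 2-fold and 4-fold were computed for the reported setting only. The settings moved all genes as well, so these counts describe the settings and are no result about the members. The hnRNPK enrichment of PSMF1 reversed to -1.17 without centring, -2.0 with equal sums and -0.56 without the filter. With equal sums, the FLAG-CBFB enrichment of PSMF1 was -0.19, that of PSME3 -0.87, and the hnRNPK enrichment of PSME3 -0.66. PSME3IP1 reversed to 0.11 with hnRNPK in TMM-scaled counts. In the PSME3 and PSMF1 cases the scaling moved all genes together, and both remained above the members' median in each.

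The count test called 12 members lower against the FLAG-CBFB input, and 31 with DESeq2 size factors, 34 without the filter and 24 by DESeq2. Dropping PSMC3IP and PSME3IP1, chosen after seeing the data, left the FLAG-CBFB and hnRNPK medians at -0.08 and -1.85. With 1 hnRNPK repeat there is no residual spread and no count test. No paired analysis was possible because replicate number 1 is the only one that an input and a RIP have in common. Depth limits PSMB9 (2 and 8 counts) and PSMC3IP (9 and 84 counts) in the hnRNPK RIPs; the least covered other member had 35 counts. The hnRNPK p-values rest on the spread of 2 RIPs, 1 input and no control antibody.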
